A study of Mus musculus with 8 samples.

Results

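The genes described here are 9 subunits of activator protein 1 (AP-1), the dimeric transcription factor: Fos, Fosb, Fosl1, Fosl2, Jun, Junb, Jund, Atf3 and Batf3. They were taken as the rows of the deposited count table whose mouse Entrez identifier carries that symbol, and they make up 9 of its 27179 genes. The measurement was RNA-seq of cultured mouse mammary tumour cells of the lines 67NR, 66cl4, 4T1 and 4T1.2, with 8 libraries in all, 2 biological replicates per line. All lines were grown in the same medium with serum, and the labels give no drug, genotype or time point that sets them apart. The lines are known to come from a single spontaneous tumour of a BALB/c-background mouse. 4T1 and 4T1.2 have high metastatic potential, and 4T1.2 spreads readily from the mammary fat pad to bone. 66cl4 and 67NR have low metastatic potential. Each line is a single derivative, and 4T1.2 came from 4T1. The tests below therefore weigh differences against the spread between replicate libraries and not against the spread among tumours. Nothing in the labels says how far apart the replicate cultures of a line were grown.

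AP-1 works as a pair of basic leucine zipper (bZIP) proteins. Jun proteins pair with one another or with a Fos protein, whereas Fos proteins need a Jun partner to bind DNA. The pair recognises the 12-O-tetradecanoylphorbol-13-acetate response element (TRE) or, with ATF partners, the cyclic AMP response element (CRE). Most of these genes are immediate-early genes: mitogen-activated protein (MAP) kinases switch them on within minutes of serum, growth factor or stress, and the messages are short-lived. In mammary tumours AP-1 is known for its links to proliferation, protease production and invasion.

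Library totals ran from 37159840 to 66269681 counts, and the 10 most abundant genes held between 4.67% and 7.58% of a library. All 9 genes passed the filter on low counts, after which 13925 genes were tested. Of the other cell types that a culture could hold, the leucocyte gene Ptprc had at most 2 counts in any library, and Cd3e and Adgre1 had 0 in all libraries. The summed level of 8 leucocyte markers was 4.04 to 5.61 CPM (counts-per-million units of the scaled library size) in 4T1/4T1.2 and 19.4 to 25.6 CPM in 66cl4/67NR, and Lyz2 made up most of the latter (19.7 and 22.6 CPM in 66cl4 and 67NR). The summed level of 6 endothelial markers was 1.55 to 9.76 CPM against 0.335 to 0.464 CPM, with Kdr at 0 or 1 counts. Of 3 leucocyte markers tested 2 were higher in 4T1/4T1.2 and Lyz2 was lower, and 3 of 3 endothelial markers tested were higher. Of all genes tested, 38.1% were higher and 38.6% lower. A marker near 0 in one pair of lines, such as Tie1 (0 or 1 counts in 66cl4/67NR), passed the filter only through the other. The direction of its call was thus fixed by the filter. Untested Emcn had 0 counts in 4T1/4T1.2 and 0 to 8 in 66cl4/67NR, and Tek had 0 to 3 and 1 to 5.

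The epithelial character of the lines differed. Of 9 epithelial markers tested, 9 were higher in 4T1/4T1.2, where 38.1% of all genes were. Their median log2 fold change was 6.17, or 5.08 with genes near 0 counts held at their bound. Epcam, Cdh1, Krt19, Cldn4 and Cldn7 had at most 7 counts in any 66cl4 or 67NR library. They passed the filter only through 4T1/4T1.2, so it fixed their direction. Krt5, the marker not tested, had 0 to 3 counts in 4T1/4T1.2 and 2 to 9 in 66cl4/67NR. The 10 epithelial markers summed to 1841 to 3442 CPM in 4T1/4T1.2 and to 465 to 722 CPM in 66cl4/67NR. Krt8 was abundant in every line, whereas Epcam had 0 or 1 counts and Cdh1 had 2 to 7 counts in the 66cl4 and 67NR libraries, so the defining adhesion markers of an epithelial cell were near 0 there. Of 10 mesenchymal markers, 7 were lower and 2 (Vim and Sparc) were higher in 4T1/4T1.2, beside 38.6% and 38.1% of all genes. Among the 7, Cdh2 and Col1a2 had at most 2 counts in 4T1/4T1.2 and passed the filter only through 66cl4/67NR. The sum of the 10 was nonetheless 5994 to 8070 CPM in 4T1/4T1.2 and 3735 to 6314 CPM in 66cl4/67NR. These differences run with the comparison of the pairs of lines below, and their part in the AP-1 results was not tested.

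The first comparison set 4T1 with 4T1.2 against 66cl4 with 67NR, by the mean of each pair, and addresses which AP-1 genes differ between lines of high and low metastatic potential. All 9 genes differed by edgeR's quasi-likelihood test. Fos, Fosb, Jun, Jund, Atf3 and Batf3 were higher in 4T1/4T1.2, while Fosl1, Fosl2 and Junb were lower, so each of the Fos and Jun families was split. Differences between these lines were common, with 38.1% of all genes tested higher and 38.6% lower. The 4 libraries of each pair did not overlap for 5 genes that were higher (Fosb, Jun, Jund, Atf3 and Batf3) and 2 that were lower (Fosl2 and Junb), against 27.8% and 27.7% of all genes. The median log2 fold change was 0.94 for the 9 genes and -0.01 for all genes. Without Batf3, which had no counts in 66cl4 and 67NR, 5 of 8 genes were higher and 3 lower, with a median of 0.89. In bulk RNA, fewer cells that express a gene and less RNA in each cell cannot be told apart.

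**Figure D1:**
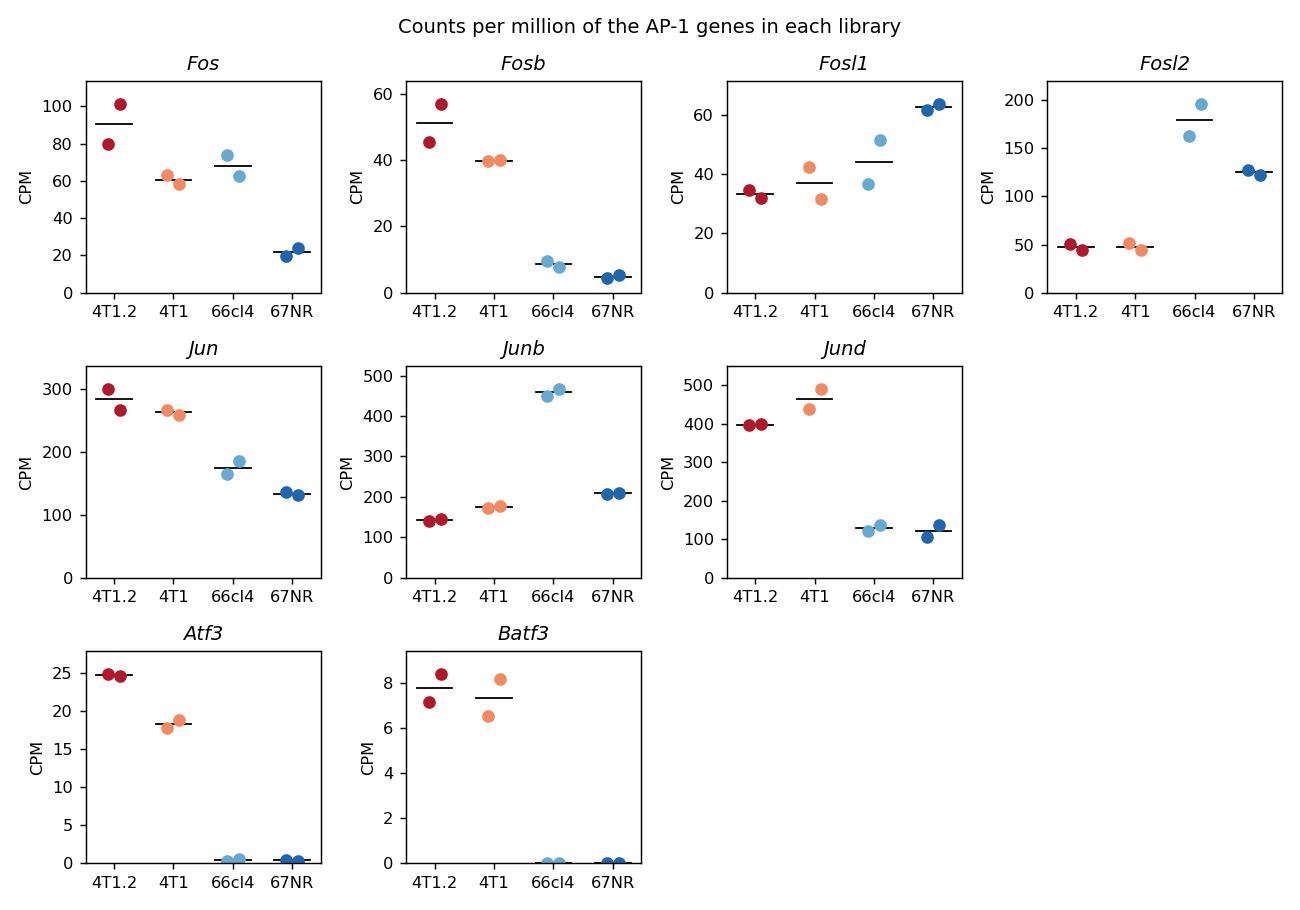
CPM (vertical axes, linear from 0) of the 9 AP-1 genes in each of the 8 libraries, with the lines on the horizontal axes, points for the 2 replicates and a bar for their mean. Fosb, Jun, Jund, Atf3 and Batf3 lie higher in every 4T1.2 and 4T1 library than in every 66cl4 and 67NR library, Fosl2 and Junb lie lower, and Fos and Fosl1 overlap.

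Among the Fos proteins, Fos and Fosb carry strong activation domains. Fos (chromosome 12, 85473890 to 85477274, GRCm38) was measured at 79.9 and 101 CPM in 4T1.2, 62.9 and 58.4 CPM in 4T1, 73.7 and 62.5 CPM in 66cl4, and 19.9 and 24.1 CPM in 67NR. The 67NR libraries were the lowest, and the 4T1 and 66cl4 libraries overlapped. The pooled log2 fold change of Fos was 0.94 (SE 0.10, edgeR adjusted p = 1.55e-05), a 1.91-fold difference. Its relative Fosb (chromosome 7, 19302696 to 19310118) was measured at 45.7 and 57.1 CPM in 4T1.2 and at 39.7 and 40.2 CPM in 4T1. In 66cl4 Fosb was at 9.65 and 7.90 CPM and in 67NR at 4.31 and 5.22 CPM. Every 4T1 and 4T1.2 library was thus several times above every other library, with a pooled log2 fold change of 2.80 (SE 0.11, edgeR adjusted p = 6.44e-09) or 6.97-fold.

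Fosl1 and Fosl2 encode the Fos-related antigens Fra-1 and Fra-2, which lack the strong activation domain, and Fra-1 is widely associated with mesenchymal and invasive carcinoma cells. Fosl1 (chromosome 19, 5447698 to 5455938) was measured at 34.5 and 31.9 CPM in 4T1.2, 42.4 and 31.6 CPM in 4T1, 36.8 and 51.6 CPM in 66cl4, and 61.7 and 63.9 CPM in 67NR. It was highest in 67NR. The 4T1 libraries overlapped those of 4T1.2 and of 66cl4, which did not overlap each other. The pooled log2 fold change of Fosl1 was -0.59 (SE 0.12, edgeR adjusted p = 0.00141), the smallest difference among the 9 genes. In the reference annotation Fosl1 shares 1163 of its 1864 exon bases (62.4%) with Ccdc85b on the opposite strand. The counts used a Fosl1 length of 1705 bases. Whether the counting used strand is not given in the sources used here, so the Fosl1 level is uncertain. Ccdc85b itself was at mean levels of 118, 133, 103 and 94.7 CPM in 4T1.2, 4T1, 66cl4 and 67NR, with a pooled log2 fold change of 0.35 (edgeR adjusted p = 0.0147), opposite in direction to Fosl1.

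Fosl2 (chromosome 5, 32136472 to 32157840) was measured at 50.8 and 44.0 CPM in 4T1.2, 51.1 and 44.1 CPM in 4T1, 162 and 196 CPM in 66cl4, and 127 and 123 CPM in 67NR. No 4T1 or 4T1.2 library reached the level of a 66cl4 or 67NR library. The pooled log2 fold change of Fosl2 was -1.65 (SE 0.09, edgeR adjusted p = 6.39e-08), or 3.15-fold higher in 66cl4/67NR.

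Of the Jun proteins, Jun is a strong transactivator and the usual partner of Fos. Jun (chromosome 4, 95049036 to 95052222) was measured at 300.1 and 267 CPM in 4T1.2, 267 and 258 CPM in 4T1, 164 and 185 CPM in 66cl4, and 136 and 132 CPM in 67NR. The pairs of lines did not overlap, and the pooled log2 fold change was 0.84 (SE 0.07, edgeR adjusted p = 1.65e-06). Junb, which can oppose Jun at some promoters, went the other way. Junb (chromosome 8, 84976909 to 84978748) was measured at 140.0 and 144 CPM in 4T1.2, 172 and 177 CPM in 4T1, 449 and 467 CPM in 66cl4, and 208 and 209.8 CPM in 67NR. The 66cl4 libraries stood well above all others. The pooled log2 fold change of Junb was -0.97 (SE 0.06, edgeR adjusted p = 1.23e-07).

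Jund differs from the rest of the Jun family in that it is expressed broadly and constantly and responds little to serum. Jund (chromosome 8, 70697739 to 70700616) was measured at 397 and 399 CPM in 4T1.2, 438 and 491 CPM in 4T1, 120 and 136 CPM in 66cl4, and 106 and 136 CPM in 67NR. All 4T1 and 4T1.2 libraries were above all 66cl4 and 67NR libraries, with a pooled log2 fold change of 1.78 (SE 0.09, edgeR adjusted p = 4.96e-08) or 3.44-fold. The reference annotation places Gm11175 on the opposite strand over 877 of the 1668 Jund exon bases (52.6%), so the Jund level carries the same uncertainty as that of Fosl1. The counts used a Jund length of 2878 bases, so 52.6% is not a share of the counted exons.

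Atf3 and Batf3 are bZIP partners of the Jun proteins. Atf3 is induced by stress and often represses its targets, and Batf3 is best known as a lineage factor of dendritic cells. Their differences were the largest of the 9 genes. Atf3 (chromosome 1, 191170296 to 191183333) had 13 and 18 counts in the 67NR libraries and 13 and 26 in those of 66cl4, but 1087 and 876 in those of 4T1 and 1415 and 1400 in those of 4T1.2. In CPM its level was 0.355 and 0.292 in 67NR and 0.287 and 0.580 in 66cl4, but 17.8 and 18.9 in 4T1 and 24.9 and 24.7 in 4T1.2. The pooled log2 fold change of Atf3 was 5.84 (SE 0.16, edgeR adjusted p = 4.04e-10), or 57.3-fold.

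Batf3 (chromosome 1, 191098414 to 191108943) had 405 and 476 counts in 4T1.2, 399 and 378 in 4T1, and 0 in each of the 66cl4 and 67NR libraries. In 4T1.2 this was 7.13 and 8.40 CPM and in 4T1 it was 6.53 and 8.15 CPM. A count of 0 allows up to 3 counts, which is 0.0486 to 0.0819 CPM in the 66cl4 and 67NR libraries. The mean Batf3 level over the 4 libraries of 4T1/4T1.2 was at least 114-fold higher than the mean of these floors. Batf3 passed the filter on low counts only through the libraries in which it is high, so its call adds no support to the levels themselves. Such limits cover counting error only. Of the 8 leucocyte markers, Cd68 was also higher in the libraries that held Batf3 (means 4.03 and 4.94 CPM in 4T1.2 and 4T1 against 1.80 and 2.87 CPM in 66cl4 and 67NR). The means of Itgam were higher too (0.132 and 0.293 CPM against 0.0223 and 0.101 CPM), but its libraries overlapped in CPM. Lyz2 was lower, and Ptprc, Cd3e and Adgre1 had at most 2 counts. The part of these markers in the Batf3 result was not tested.

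**Figure D2:**
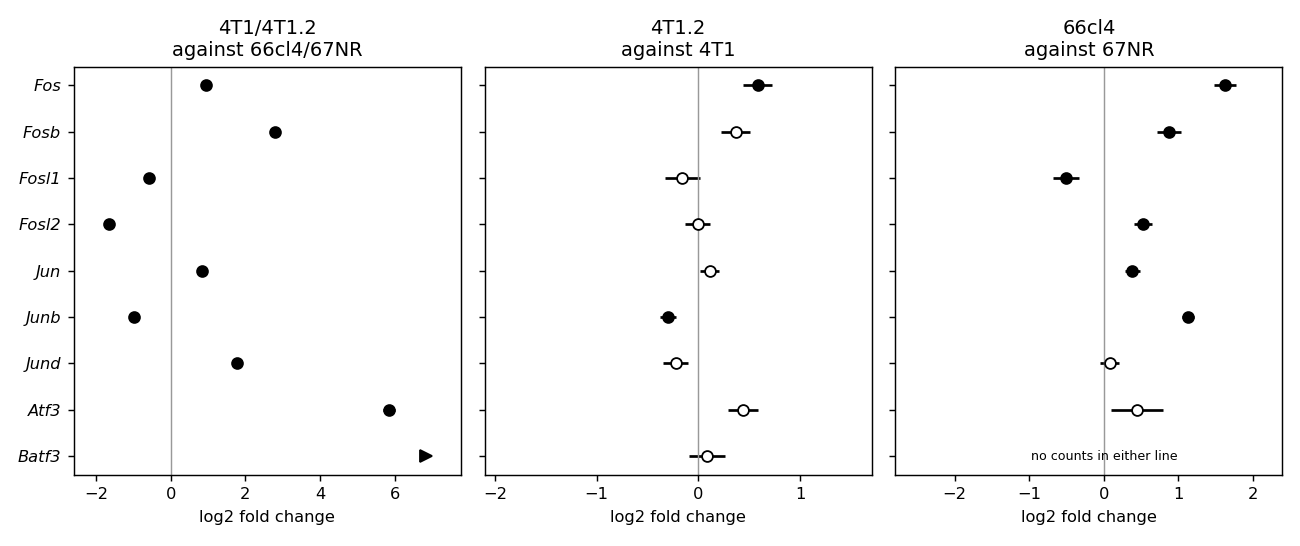
Fitted log2 fold change (horizontal axes) of each AP-1 gene with its standard error in 3 comparisons, with filled points past an adjusted p of 0.05 and open points not. In the comparison of 4T1/4T1.2 with 66cl4/67NR all 9 are filled and Batf3 is drawn as a triangle at its lower bound of 6.84, in 4T1.2 against 4T1 only Fos and Junb are filled, and in 66cl4 against 67NR Batf3 had no counts.

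Atf3 and Batf3 are also neighbours. They lie 61353 bases apart on chromosome 1 with no tested gene between them. Across the 8 libraries their log2 CPM had a Pearson correlation of 0.995, which describes 4 lines with 2 libraries each and carries no test. Such a value is not particular to them, as 1378 other tested genes correlated with Atf3 at over 0.95 and 1499 with Batf3. In 4T1.2 against 4T1 their log2 fold changes were 0.44 (Atf3) and 0.08 (Batf3), neither called. Other genes close by did not share the size of the difference that Atf3 and Batf3 had in 4T1/4T1.2 against 66cl4/67NR. Of 20 other tested genes within 1 Mb on either side, a window chosen after the values were seen, 8 were called as higher in 4T1/4T1.2 and 3 as lower. Their log2 fold changes ran from -3.10 (Rd3) to 1.14 (Pacc1), with a median of 0.13. Nsl1, the nearest tested gene beyond Batf3, had a log2 fold change of 0.07 (edgeR adjusted p = 0.600).

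**Figure D3:**
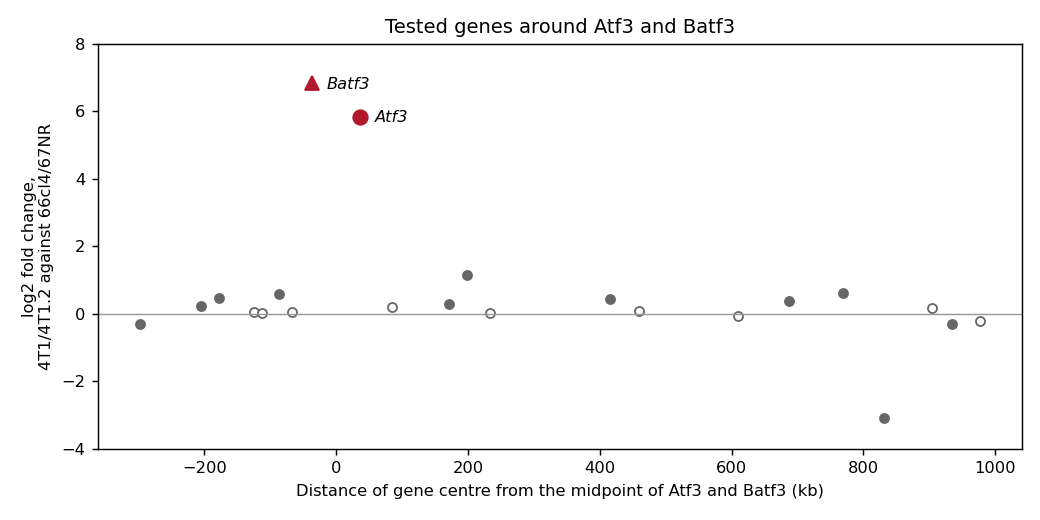
Log2 fold change in 4T1/4T1.2 against 66cl4/67NR (vertical axis) of each tested gene within 1 Mb of Atf3 and Batf3, by the distance of its centre from their midpoint in kb (horizontal axis). Filled points passed an adjusted p of 0.05. Atf3 at 5.84 and Batf3, a triangle at its lower bound of 6.84, stand above the 20 other genes, which lie between -3.10 and 1.14.

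The sequences just upstream of 3 genes are shown because AP-1 genes can bind each other's promoters. Atf3 and Batf3 were chosen as the neighbours with the largest differences between the pairs of lines, and Jun because it holds the only motif found. These are the 100 bases before the transcription start in RefSeq for GRCm38.p6, at chr1:191183334-191183433 (minus strand) for Atf3, chr1:191098314-191098413 (plus strand) for Batf3 and chr4:95052223-95052322 (minus strand) for Jun, with the motif in capitals.
Atf3: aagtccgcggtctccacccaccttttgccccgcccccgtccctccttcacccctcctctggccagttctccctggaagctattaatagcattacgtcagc
Batf3: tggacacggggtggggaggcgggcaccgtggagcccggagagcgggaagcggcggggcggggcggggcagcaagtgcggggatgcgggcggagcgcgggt
Jun: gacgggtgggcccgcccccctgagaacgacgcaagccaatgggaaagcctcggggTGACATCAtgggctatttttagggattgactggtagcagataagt

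RefSeq windows from 250 bases before to 50 bases after the start were matched for 8 of the 9 genes, and Fosl1 had none. Searched on both strands were the TRE (TGACTCA), the CRE (TGACGTCA), the Jun-type site (TGACATCA) and the CArG box bound by serum response factor. None of the first 3 contains another. The Jun-type site begins 45 bases before the start of Jun and was the only match among the 8 windows. Of 32817 promoter windows of the same length, 5.20% hold the TRE, 1.79% the CRE, 3.62% the Jun-type site and 1.63% the CArG box. A match is a description of the letters, and its absence says only that they are not in the window. The 250 bases upstream of Batf3 are 76.0% G and C and those of Atf3 65.2%.

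Within the pair of high metastatic potential, the comparison asks what differs between bone-metastatic 4T1.2 and its parent 4T1. Fos was higher in 4T1.2 (log2 fold change 0.58, SE 0.14, edgeR adjusted p = 0.0184) and Junb was lower (-0.29, SE 0.08, edgeR adjusted p = 0.0270), while 7 genes did not pass the test. Of all genes 9.37% were higher and 9.92% lower. Of 9 epithelial markers 7 were lower and 0 higher in 4T1.2, at a summed 1841 to 2155 CPM against 2636 to 3442 CPM in 4T1, and their part in these results was not tested. Both calls were lost without single libraries. Fos had an adjusted p of 0.150 without replicate 2 of 4T1.2 (log2 fold change 0.39) and 0.0547 without replicate 2 of 4T1. Junb had an adjusted p of 0.165 and 0.0991 without replicates 1 and 2 of 4T1.2, 0.0741 without replicate 2 of 4T1, and 0.0630 and 0.0629 without replicates 1 and 2 of 67NR, whose spread enters the same fit.

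Of the 7 that did not pass, Atf3 had a log2 fold change of 0.44 (SE 0.15, edgeR adjusted p = 0.0666), with 24.8 ± 0.156 CPM in 4T1.2 and 18.3 ± 0.777 CPM in 4T1 (SD, n = 2). The Atf3 difference passed at an adjusted p of 0.0253 and 0.0255 without replicates 1 and 2 of 66cl4, and also by DESeq2 (0.0192) and limma-voom (0.0237). Fosb had a log2 fold change of 0.36 (edgeR adjusted p = 0.104) and Jund one of -0.22 (edgeR adjusted p = 0.260). Jun, Fosl1, Fosl2 and Batf3 had log2 fold changes between -0.16 and 0.11.

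Within the pair of low metastatic potential, more of the AP-1 genes differed. In 66cl4 relative to 67NR 5 of 8 genes were higher and 1 was lower, where 22.2% of all genes were higher and 22.4% lower. Batf3 had no counts in either line and is left out. Of the markers, 2 of 9 epithelial genes were higher and 0 lower, and 4 of 10 mesenchymal genes were higher and 1 lower, at sums of 5396 to 6314 CPM in 66cl4 and 3735 to 3778 CPM in 67NR, and their part was not tested. Fos had the largest difference (log2 fold change 1.63, SE 0.15, edgeR adjusted p = 2.13e-05), or 3.09-fold. Junb was 2.19-fold higher in 66cl4 (1.13, SE 0.08, edgeR adjusted p = 4.63e-06), and Fosb 1.83-fold (0.87, SE 0.16, edgeR adjusted p = 0.00173). All 3 are immediate-early genes that serum induces.

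Smaller differences in the same comparison were less stable. Fosl2 was higher in 66cl4 by 0.52 on the log2 scale (SE 0.12, edgeR adjusted p = 0.00611), which became 0.0541 without replicate 2 of 66cl4 and 0.0565 without replicate 2 of 67NR. Jun was higher by 0.38 (SE 0.09, edgeR adjusted p = 0.00881), which became 0.0643 and 0.0741 without the same libraries. Fosl1 was lower with a log2 fold change of -0.51 (SE 0.17, edgeR adjusted p = 0.0365), which became 0.237 without replicate 1 of 66cl4 (log2 fold change -0.28), 0.111 without replicate 1 of 67NR and 0.150 without replicate 2 of 67NR. Jund (0.08, SE 0.13, edgeR adjusted p = 0.637) and Atf3 (0.45, SE 0.35, edgeR adjusted p = 0.327) did not pass the test. The comparisons in this report share libraries and a common estimate of the spread, so they are not independent of each other.

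A test for any difference among the 4 lines called all 9 genes, as it did 84.8% of all genes. Ranked by its F statistic among the 13925 genes, Atf3 stood at place 512 (F = 469) and Fosl1 at place 8854 (F = 11.5). Single lines were also compared across the pairs, where most genes of the transcriptome differed. In 4T1.2 against 67NR and in 4T1 against 67NR all 9 AP-1 genes passed the test, with 67.9% and 68.2% of all genes. In 4T1.2 against 66cl4 8 passed, with 68.9% of all genes, and in 4T1 against 66cl4 7 passed, with 70.1%. Each of these counts includes Batf3, which passed the filter only through 4T1/4T1.2, so its calls add no support.

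The exceptions were Fosl1 and Fos. Fosl1 did not pass in 4T1.2 against 66cl4 (log2 fold change -0.41, edgeR adjusted p = 0.0553). Its adjusted p was 0.0160 and 0.0181 without replicates 1 and 2 of 4T1 and 0.0102 without replicate 1 of 66cl4. Nor did Fosl1 pass in 4T1 against 66cl4 (-0.26, edgeR adjusted p = 0.207), where it passed at 0.0226 without replicate 1 of 4T1 and at 0.0337 without replicate 1 of 66cl4. Without replicate 2 of 66cl4 the log2 fold change was 0.01. Fos was at a similar level in 4T1 and 66cl4 (log2 fold change -0.17, edgeR adjusted p = 0.313). Its higher level in 4T1.2 than in 66cl4 (0.41, edgeR adjusted p = 0.0244) had an adjusted p of 0.210 without replicate 2 of 4T1.2 (log2 fold change 0.24) and of 0.159 without replicate 2 of 66cl4.

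The order of the lines differed between genes. Fosb, Jun and Atf3 fell from 4T1.2 through 4T1 and 66cl4 to 67NR in their means, with the step between 4T1 and 66cl4 called for each (edgeR adjusted p = 7.53e-07, 0.000333 and 1.43e-08) and that between 4T1.2 and 4T1 for none. Batf3 had the same order with 66cl4 and 67NR level at 0. Jund ran from 4T1 through 4T1.2 and 66cl4 to 67NR, and only its middle step was called (edgeR adjusted p = 2.09e-06). Fosl2 and Junb ran from 66cl4 through 67NR and 4T1 to 4T1.2. The middle step was called for Fosl2 (edgeR adjusted p = 5.12e-06) and for Junb (0.0140), but that of Junb had an adjusted p of 0.0640 and 0.0754 without replicates 1 and 2 of 67NR.

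For Fos and Fosl1 the libraries of the pairs overlapped, and the means of Fos did not divide the lines into the same pairs. Fos ran from 4T1.2 through 66cl4 and 4T1 to 67NR, where the last step was by far the largest (edgeR adjusted p = 1.28e-05). Fosl1 ran from 67NR through 66cl4 and 4T1 to 4T1.2, so its means kept the pairs, but only its first step was called (edgeR adjusted p = 0.0365).

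Levels of different genes were compared per length of the counted exons, in RPKM (CPM divided by that length in kilobases), as descriptions without a test. Fos-family messages summed to 69.9 ± 1.93 RPKM in 67NR, 91.4 ± 6.15 in 66cl4, 69.4 ± 6.80 in 4T1 and 84.5 ± 7.50 in 4T1.2 (SD, n = 2). Beneath these sums the makeup of the family differed. Fos held 51.1% of the Fos-family RPKM in 4T1.2 and 41.9% in 4T1, but 35.8% in 66cl4 and 15.0% in 67NR. Fosb held 16.1% and 15.3% in 4T1.2 and 4T1, against 2.56% and 1.80% in 66cl4 and 67NR. Fosl2 moved in the opposite direction, at 9.65% and 11.7% against 33.4% and 30.5%. Fosl1 was the leading member in 67NR with 52.7%, and held between 23.2% and 31.1% in the other lines. The sums and shares of this family carry the uncertainty of the Fosl1 level given above.

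The Jun family was more abundant per length in every line, with sums of 198 ± 7.20 RPKM in 67NR, 348 ± 15.3 in 66cl4, 339 ± 13.3 in 4T1 and 304 ± 5.22 in 4T1.2 (SD, n = 2). Jund led in 4T1.2 and 4T1 with 45.4% and 47.6% of the Jun-family RPKM, and the sums and shares of this family carry the uncertainty of the Jund level. Junb led in 66cl4 and 67NR with 71.5% and 57.5%, against 25.4% in 4T1.2 and 28.0% in 4T1. Jun held 29.2% and 24.4% in 4T1.2 and 4T1 and 15.7% and 21.3% in 66cl4 and 67NR. These shares depend on length: as shares of CPM, Fosl2 rather than Fos or Fosl1 led the Fos family in 66cl4 (59.6%) and 67NR (58.3%), while Junb still led the Jun family there (60.2% and 45.1%). Atf3 and Batf3 were at similar mean levels per length in 4T1.2 (12.5 and 10.9 RPKM) and 4T1 (9.28 and 10.3 RPKM).

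**Figure D4:**
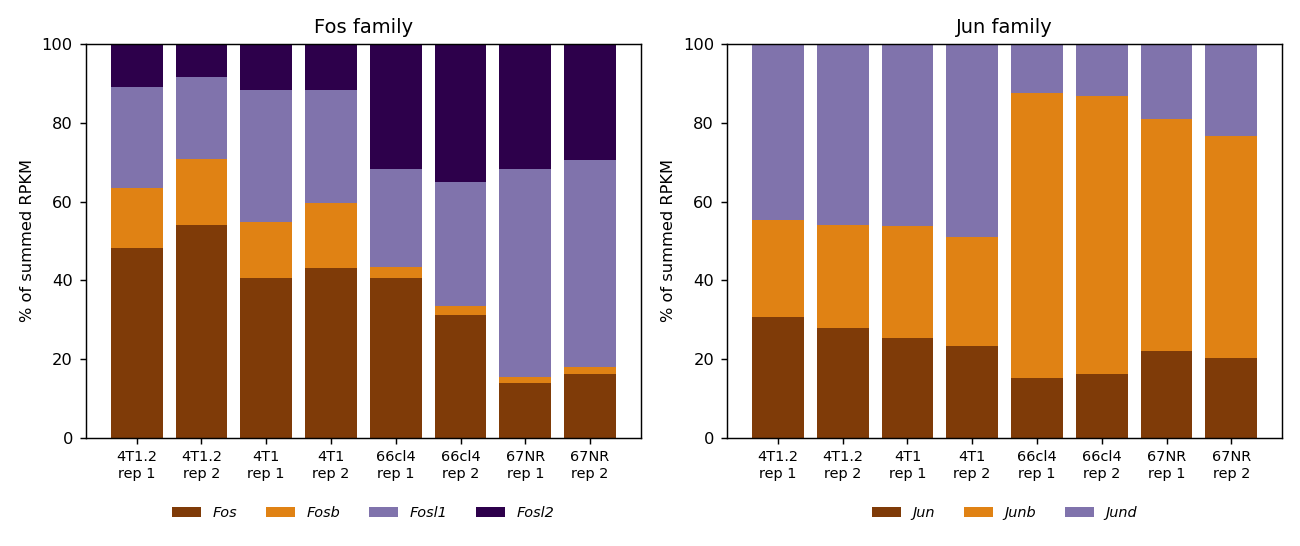
Share of each gene in the summed RPKM of the Fos family (left) and the Jun family (right), in percent (vertical axes), for each library (horizontal axes). Fosb shrinks from 14.2% or more in each 4T1.2 and 4T1 library to 2.94% or less in each 66cl4 and 67NR library, and Junb grows from 28.3% or less to 56.2% or more.

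Genes that act with AP-1 were counted in lists written for the pathway, and the same comparison of 4T1/4T1.2 with 66cl4/67NR was read for each, beside the 38.1% of all genes that were higher and the 38.6% that were lower. Listed genes near 0 in one pair of lines passed the filter through the other. Of 13 other bZIP genes that can pair with Jun or Fos, 9 were tested, of which 4 were higher, 3 were lower and 2 did not pass (median log2 fold change -0.01), shares near those of all genes. Creb5 and Maff had the largest increases (1.64, SE 0.16, and 0.73, SE 0.11). Batf2, a low-abundance gene (0.0617 to 0.422 CPM across the lines), and Atf7 had the largest decreases (-1.59, SE 0.31, and -1.33, SE 0.15). Jdp2, a repressor of AP-1 and the nearest tested gene beyond Fos on chromosome 12, had a log2 fold change of -0.76 (SE 0.06, edgeR adjusted p = 1.29e-06), opposite to Fos.

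Upstream of AP-1, 19 of 20 genes of the JNK, ERK and p38 MAP kinase modules were tested, and 8 were higher, 6 were lower and 5 did not pass (median 0.05), again near the shares of all genes. The large increases lay with Mapk11, Mapk12 and Mapk13, but not with every p38 kinase. Mapk14 (p38 alpha), named after its values were seen, was at 106, 111, 165 and 127 CPM in 4T1.2, 4T1, 66cl4 and 67NR. It was lower in 4T1/4T1.2 (log2 fold change -0.41, SE 0.06, edgeR adjusted p = 0.000177). Mapk13 (p38 delta) was at 40.0 ± 2.07 CPM in 4T1.2 and 54.8 ± 8.82 CPM in 4T1, with 0 to 5 counts in the 66cl4 and 67NR libraries. Mapk11 (p38 beta) was at 19.3 ± 0.435 and 18.6 ± 1.16 CPM, with 0 to 3 counts in those libraries. Mapk12 (p38 gamma) was at 0.751 ± 0.175 CPM in 67NR and 1.52 ± 0.0990 in 66cl4 but at 45.5 ± 0.247 in 4T1 and 40.2 ± 0.523 in 4T1.2 (SD, n = 2), and had the largest F statistic of the list (887). Map2k6, which encodes the p38 activator MKK6, went the other way, with 0 to 5 counts in 4T1 and 4T1.2 and 12.4 ± 0.932 and 15.5 ± 1.08 CPM in 66cl4 and 67NR. Braf was also lower in 4T1/4T1.2 (log2 fold change -1.18, SE 0.10).

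Inhibitors that damp MAP kinase signalling, which are themselves induced by it, gave 13 higher, 1 lower and 2 that did not pass of 16 tested, beside 38.1% of all genes higher and 38.6% lower, with a median log2 fold change of 0.79. Dusp2 reached 12.9 ± 0.0213 CPM in 4T1.2 and 18.1 ± 0.333 in 4T1 but had 0 to 4 counts in the 66cl4 and 67NR libraries. Dusp6, the phosphatase of ERK, was at 534 ± 41.5 and 445 ± 25.9 CPM against 83.5 ± 9.47 and 101 ± 4.09 CPM (log2 fold change 2.41, SE 0.08, edgeR adjusted p = 1.56e-09). The gene that was lower was Dusp1 (-0.41, SE 0.06, edgeR adjusted p = 0.000183), named after its values were seen, whose libraries overlapped between the pairs.

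Serum response factor and its partners, which drive Fos transcription, held 1 gene that was higher, 4 that were lower and 1 that did not pass, with a median of -0.38. Elk3 had a log2 fold change of 0.44 (SE 0.06), Mrtfa of -1.23 (SE 0.10) and Elk1 of -1.01 (SE 0.07). Of 9 genes that regulate Jun and Fos proteins, 7 were higher and 2 were lower (median 0.52). Trib1, a pseudokinase that directs proteins to degradation, had the largest difference (2.68, SE 0.09), followed by Apex1, which reduces a cysteine in the Jun and Fos DNA-binding domains (1.07, SE 0.08).

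Among the other immediate-early genes more were lower than higher. Of 17 tested, 5 were higher in 4T1/4T1.2, 10 were lower and 2 did not pass, with a median log2 fold change of -0.56. Btg2 reached 90.9 ± 11.6 CPM in 66cl4 and 72.1 ± 7.13 in 67NR but only 8.49 ± 0.750 in 4T1.2 and 9.43 ± 0.0682 in 4T1 (log2 fold change -3.18, SE 0.09, edgeR adjusted p = 6.68e-10). Arc had a log2 fold change of -2.74 (SE 0.13). In 66cl4 against 67NR, in contrast, 15 of the 17 were higher and 1 was lower, with a median of 0.83, where 22.2% of all genes were higher. Egr1, named after its values were seen, stood at 0.480 ± 0.100 CPM in 67NR, 137 ± 2.98 in 66cl4, 50.8 ± 16.9 in 4T1 and 108 ± 2.07 in 4T1.2 (SD, n = 2). In the other lists the same comparison, with 22.2% of all genes higher and 22.4% lower, gave 5 higher and 4 lower of 16 feedback inhibitors, 7 and 2 of 19 MAP kinase genes, 3 and 0 of 9 bZIP genes, 1 and 0 of 6 genes of serum response factor, and 3 and 4 of 9 regulators.

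Of 16 textbook AP-1 targets tested, 11 were higher in 4T1/4T1.2 and 5 were lower, beside 38.1% and 38.6% of all genes, with a median log2 fold change of 1.01. Proteases of the extracellular matrix led the increases. Plau, the urokinase plasminogen activator, was at 0.283 ± 0.102 CPM in 67NR and 0.377 ± 0.00270 in 66cl4 but at 750 ± 8.13 in 4T1 and 1194 ± 122 in 4T1.2 (SD, n = 2; log2 fold change 11.53, SE 0.13, edgeR adjusted p = 6.69e-12). Mmp9 (7.77, SE 0.13) and Mmp3 (7.20, SE 0.08), 2 matrix metalloproteinases, were also higher in every 4T1 and 4T1.2 library. Hmox1, a haem-degrading enzyme, and Spp1, which encodes osteopontin, were lower in 4T1/4T1.2 (-2.41, SE 0.08, and -2.30, SE 0.11). In 66cl4 against 67NR 7 of the 16 targets were higher and 5 were lower.

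In 4T1.2 against 4T1, where 9.37% of all genes were higher and 9.92% lower, the counts were 5 higher and 0 lower of 17 immediate-early genes, 6 and 2 of 16 feedback inhibitors, 3 and 2 of 16 targets, 1 and 1 of 9 bZIP genes, 0 and 1 of 19 MAP kinase genes, 1 and 0 of 9 regulators, and 0 and 0 of 6 genes of serum response factor.

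**Figure D5:**
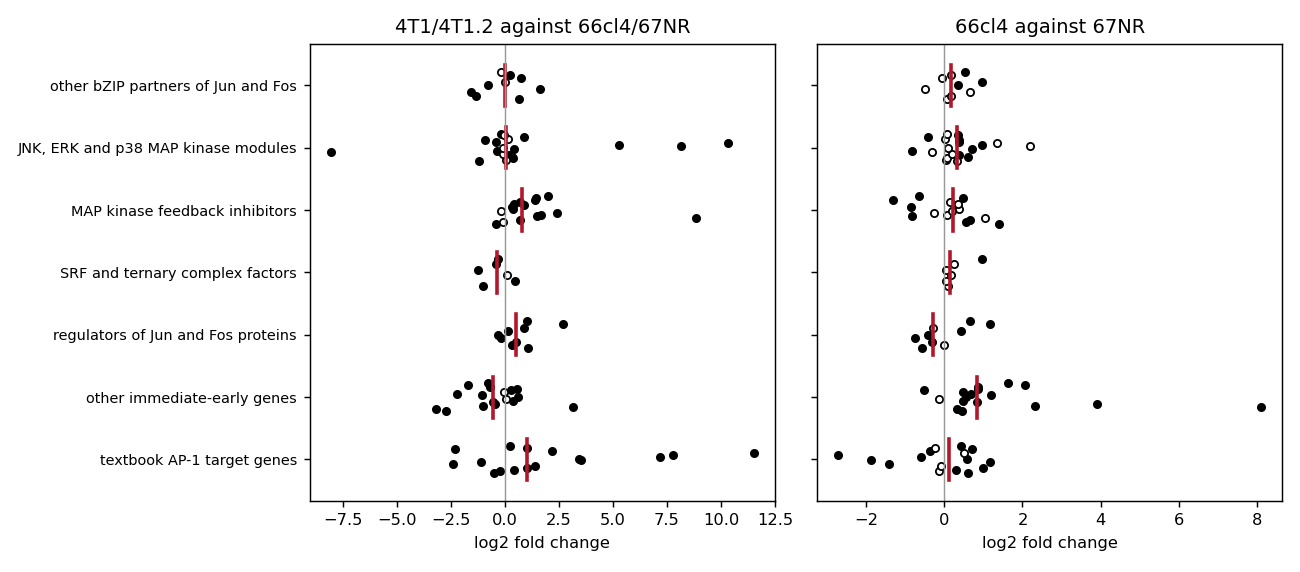
Log2 fold change (horizontal axes) of each tested gene of 7 lists (rows) in 4T1/4T1.2 against 66cl4/67NR (left) and 66cl4 against 67NR (right), with filled points past an adjusted p of 0.05, open points not, red bars at list medians and Mapk11, with 0 to 3 counts in 66cl4 and 67NR, drawn on the left as if it had 3 counts there. The median of the immediate-early genes is -0.56 on the left and 0.83 on the right, and that of the feedback inhibitors is 0.79 and 0.23.

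Finally, the genes with the most similar pattern were sought by the Pearson correlation of log2 CPM over the 8 libraries, as a description of 4 lines that share libraries. Genes like Batf3, Atf3 and Jund were plentiful, with 1499, 1378 and 1374 tested genes at a correlation over 0.95. Only 51 genes reached this for Fosl1 and 90 for Fos. The closest to Atf3 were Itgb3, which encodes integrin beta 3 (r = 0.999), and Fam241b (0.999), and the closest to Batf3 were Nudt7 (1.000) and B4galt4 (1.000). Nudt7 and B4galt4, like Batf3, were at 0 CPM in 66cl4 and 67NR, so these correlations are set largely by that split. For Fos the closest were Tspyl4 (0.989) and H2ax (0.986), for Fosb Gpr39 (0.998) and Tmie (0.997), and for Fosl1 Klhl20 (0.980) and Khdc4 (0.977). Fosl2 was matched by Klhl21 and by Taz, here the gene of that symbol on chromosome X (both 0.998). Jun was matched by Lmo7 (0.998) and 9530068E07Rik (0.997), Junb by Ankrd55 and Ldb3 (both 0.996), and Jund by Bcam and Fam204a (both 0.998). Among the AP-1 genes themselves, Fosb and Jun had a correlation of 0.971, Fosl2 and Junb one of 0.872, Fosl2 and Batf3 one of -0.972, and Fos and Junb one of -0.04.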

How the data were processed

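RNA-seq was analysed for 8 libraries, 2 of each of the 4 lines. The authors deposited raw counts per Entrez gene, made per the labels with featureCounts on mm10. Alignment with Rsubread is stated for the study's endothelial libraries, and the tumour lines are said to have been treated likewise. For the tumour-line libraries the paper names Illumina's TruSeq RNA v2 protocol. The strand setting of the counting is not given in the sources used here. The AP-1 genes, lists and alternatives were chosen with earlier results of these data known. Gene symbols were found for 25275 of 27179 identifiers (93.0%).

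Of 15269 genes past filterByExpr, unmatched, predicted and ribosomal genes were removed (5.34% to 7.95% of a library's counts), leaving 13925. Genes were tested with the quasi-likelihood F-test of edgeR 4.0.16 (legacy fit, TMM scaling, prior count 0.125, R 4.3.3) with a mean per line and 4 residual degrees of freedom, and Benjamini-Hochberg adjustment over all genes (threshold 0.05). Standard errors are the log2 fold change divided by the square root of F. CPM and RPKM use TMM library sizes. Replicates differed by more than sampling noise (chi-square per degree of freedom 10 to 73.3), and their correlations of deviations are given with the alternatives.

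Besides the 9 AP-1 genes, the genes named from each pathway list are the 2 largest increases and 2 largest decreases in 4T1/4T1.2 against 66cl4/67NR whose libraries did not overlap, and that with the largest F. Marker genes may be named, and 2 genes most like each AP-1 gene are. Simulated counts for 13925 genes with 200 changed gave 188 recovered and 12 false calls in the pooled comparison, and 181 and 15 in 4T1.2 against 4T1. In the data 10686 and 2687 genes were called in these comparisons, some with smaller differences than those simulated. The simulation therefore does not give the error rate of the calls in these data. Alternatives were other scalings, filters, prior counts and edgeR fits, limma-voom (limma 3.58.1), DESeq2 1.42.0, thinned counts, a replicate block and leaving out each library, and figures were drawn with matplotlib 3.10.9. Protein sequences were not used here.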

Additional observations from a re-analysis of the deposited data

How the results depend on the processing

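Over the alternatives tried, 1233 of the log2 fold changes of the AP-1 genes kept direction and side of the threshold, 39 lost the call, 12 gained it and 12 that were not called changed sign. Leaving out any single library changed no call in 4T1/4T1.2 against 66cl4/67NR. A lone remaining replicate was assumed to vary like the others. In the smaller comparisons the count ranged from 0 to 2 higher and 0 to 1 lower in 4T1.2 against 4T1, and from 3 to 5 higher and 0 to 1 lower in 66cl4 against 67NR. DESeq2 and limma-voom each called 2 higher in 4T1.2 against 4T1. Testing against a minimum log2 change of 1 left 4 higher and 1 lower in the pooled comparison, where Fos and Jun lost their calls as higher, 0 higher and 0 lower in 4T1.2 against 4T1, 1 higher and 0 lower in 66cl4 against 67NR, and 1 lower in 4T1.2 and in 4T1 against 67NR. That test is stricter by construction.

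Values that changed sign were uncalled. Fosl1 ranged from -0.35 to 0.074 without single libraries in 4T1.2 against 4T1 and from -0.49 to 0.0094 in 4T1 against 66cl4, changing sign without replicate 1 of 4T1 and replicate 2 of 66cl4. In 4T1.2 against 4T1 Fosl2 ranged from -0.11 to 0.10, with positive values without replicate 2 of 4T1.2 (0.089) and replicate 1 of 4T1, and gave 0.012 with library totals, 0.00022 without removal by annotation and 0.014 on thinned counts. Batf3 ranged from -0.071 to 0.25, with negative values without the same libraries (-0.044 for the former). In 66cl4 against 67NR Jund ranged from -0.088 to 0.27, with negative values without replicate 2 of 66cl4 (-0.011) and replicate 1 of 67NR, and Atf3 from -0.14 to 0.87, negative without replicate 2 of 66cl4. The cause was not tested.

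Scaling by library totals without TMM moved the median of all genes in the pooled comparison from -0.013 to -0.142, and Fos in 4T1.2 against 66cl4 lost its call (0.32, edgeR adjusted p = 0.0651). Fosl1 in that comparison passed with library totals (0.0450), without a filter (0.0460) and by DESeq2 (0.0406). At least 10 counts in every library left Batf3 untested. Shares of the family sums without division by length moved by more than the replicate SD for 27 of 28 shares.

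With the replicate number as a block, 6 AP-1 genes were higher and 3 lower in the pooled comparison, and no AP-1 call changed. Deviations of same-numbered replicates correlated at 0.27 in 4T1.2 and 4T1 and between -0.123 and 0.074 in the other 5 pairs of lines. With so few replicates per line, these values cannot show whether same-numbered libraries were prepared together. Depth limits Atf3 in 66cl4 and 67NR, which rests on 13 to 26 counts, and Batf3 there, at 0.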
